A study of Mus musculus with 20 samples.

Results

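The 7 mouse genes for cyclin-dependent kinase (CDK) inhibitors of the CIP/KIP family (Cdkn1a, Cdkn1b, Cdkn1c) and the INK4 family (Cdkn2a, Cdkn2b, Cdkn2c, Cdkn2d) were followed in embryonic fibroblasts with and without E2F4. All probe sets of these genes with 1 gene symbol were taken, which gave 9 probe sets for 7 of the 12393 genes named on the array: 2 each for Cdkn1a and Cdkn1b and 1 for each of the others. The cells were primary mouse embryonic fibroblasts (MEFs), connective tissue cells taken from embryos at 13.5 days post coitum (dpc) and grown in culture. The wild type group held 10 cultures from 3 embryos (3, 3 and 4 cultures), and the E2F4 null group held 10 cultures from 5 embryos with 2 cultures each, with 1 single-colour array of total RNA per culture. The null allele, strain, sex, litter, passage and culture density were not stated in the labels. Cultures of 1 embryo share their source, so the embryo was the replicate. The p-values of genotype differences, slopes and correlations measure the spread between embryos, whereas those of the F tests within a genotype set embryos against the spread between cultures of 1 embryo.

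CDK inhibitors bind the kinases that drive a cell through its division cycle and slow or stop that drive. The CIP/KIP proteins p21 (Cdkn1a), p27 (Cdkn1b) and p57 (Cdkn1c) bind complexes of cyclins with several CDKs, while the INK4 proteins p16 (one product of Cdkn2a), p15 (Cdkn2b), p18 (Cdkn2c) and p19Ink4d (Cdkn2d) bind CDK4 and CDK6 and keep them from cyclin D. Active CDKs release E2F factors from Rb family proteins, and E2F4 is one of the E2F members that act mainly as repressors, working with p107 and p130. Primary MEFs are the textbook cells in which p21 acts downstream of p53 and in which products of the Cdkn2a and Cdkn2b locus build up with time in culture.

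In GRCm38.p6 the genes lie at chr17:29090979-29100722 (Cdkn1a), chr6:134920401-134925525 (Cdkn1b), chr7:143458339-143461059 (Cdkn1c), chr4:89274473-89294619 (Cdkn2a), chr4:89306289-89311032 (Cdkn2b), chr4:109660876-109666756 (Cdkn2c) and chr9:21288459-21291421 (Cdkn2d). Cdkn2a and Cdkn2b are neighbours, and Cdkn2c lies on the same chromosome. Cdkn2a makes the p16 mRNA and the Arf mRNA from different first exons, and the files do not say which of them its probe set reads.

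Because the study removed an E2F, the RefSeq promoter windows (GRCm38.p6, 250 bases before to 50 after a gene start) were searched on both strands for the E2F letters TTTCCCGC, TTTGGCGC, TTTCGCGC or TTTGCCGC, and for the same letters with any first base (NTTCCCGC, NTTGGCGC, NTTCGCGC, NTTGCCGC), which include the first set. The table held 9 windows for 6 of the 7 genes. Of these 9 windows, 1 held the strict letters and 2 the looser ones, whereas 2.26% and 9.53% of all 32851 windows of this length did. Shown are the 2 windows with such letters, in capitals, and the Cdkn1a window that begins at 29093519, which holds none and belongs to the gene with a steep relation to growth state described below.
Cdkn2c, chr4:109666707-109667006, minus strand: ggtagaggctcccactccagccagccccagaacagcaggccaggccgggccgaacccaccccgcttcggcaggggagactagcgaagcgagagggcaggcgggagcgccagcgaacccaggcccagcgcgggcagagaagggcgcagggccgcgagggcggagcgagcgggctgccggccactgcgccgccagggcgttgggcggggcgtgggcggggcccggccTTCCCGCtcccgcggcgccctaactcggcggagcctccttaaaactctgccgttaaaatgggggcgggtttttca
Cdkn2a, chr4:89294570-89294869, minus strand: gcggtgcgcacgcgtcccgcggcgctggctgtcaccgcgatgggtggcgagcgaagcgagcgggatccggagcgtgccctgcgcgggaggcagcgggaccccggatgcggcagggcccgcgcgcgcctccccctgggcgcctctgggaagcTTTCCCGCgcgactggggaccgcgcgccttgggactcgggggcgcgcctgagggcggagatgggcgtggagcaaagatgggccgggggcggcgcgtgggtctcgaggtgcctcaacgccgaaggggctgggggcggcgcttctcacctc
Cdkn1a, chr17:29093519-29093818, plus strand: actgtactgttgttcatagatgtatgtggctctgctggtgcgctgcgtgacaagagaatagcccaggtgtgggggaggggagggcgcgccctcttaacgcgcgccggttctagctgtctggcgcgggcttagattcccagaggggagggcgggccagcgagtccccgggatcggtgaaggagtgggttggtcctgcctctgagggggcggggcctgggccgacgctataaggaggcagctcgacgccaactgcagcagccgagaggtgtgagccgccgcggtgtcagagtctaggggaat
The Cdkn2c letters begin 25 bases and the strict Cdkn2a letters 99 bases before the start; the Cdkn2a window is that of the start farther upstream. A match is a run of letters and was not tested as a binding site. GC boxes (GGGCGG, either strand) stood in 7 of the 9 windows and in 35.7% of all windows, and TTTGAA, the cell cycle homology letters, in 1 of 9 (Cdkn2b) and 17.9%.

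The arrays shared 1 trimmed mean (500.2). Each of the 15 fibroblast markers on the list was at or above the 40th percentile of mean signal (69.3), against 0 of 6 erythroid, 2 of 10 epithelial, 2 of 10 endothelial, 5 of 9 neural, 4 of 10 skeletal muscle and 10 of 14 macrophage markers. E2f4 itself had 1 probe set, with embryo means of 209, 212 and 221 in wild type and 157, 167, 156, 155 and 196 in null embryos. The groups did not overlap, and the difference was -0.35 (log2, SE 0.11, limma adjusted p = 0.522); the removed part of the gene is not stated, so this probe set checks nothing.

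No inhibitor differed between genotypes beyond the spread between embryos. In none of the 9 probe sets did the embryo groups separate, where 5.17% of all 22626 probe sets had groups that did not overlap. In limma over all probe sets, 0 of 9 inhibitor probe sets had an adjusted p under 0.05 and 0 had an unadjusted p under 0.05. The background was also 0: no probe set (0%) passed, although 1606 had an unadjusted p under 0.05, and the smallest adjusted p was 0.0832. In bulk cultures, fewer cells that express a gene and less RNA per cell cannot be told apart.

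**Figure D1:**
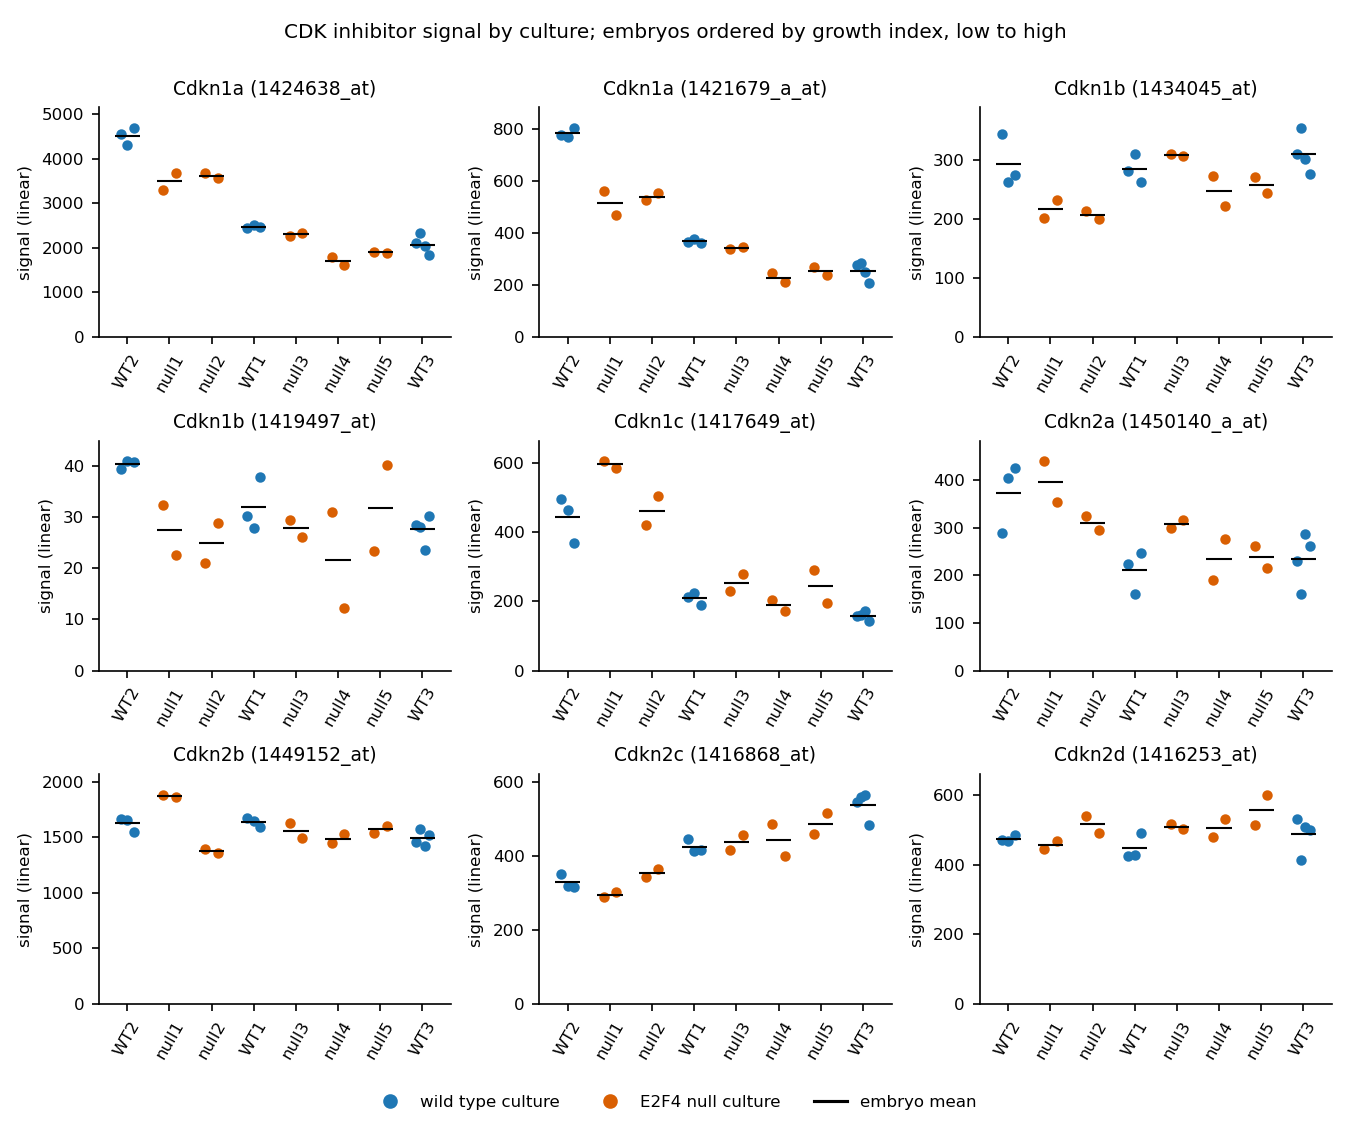
Signal of each CDK inhibitor probe set (linear, vertical axis) in 20 cultures; points are cultures, black bars embryo means, and embryos run from the lowest to the highest growth index on the horizontal axis. Both Cdkn1a probe sets and Cdkn1c were highest in wild type embryo 2 and null embryos 1 and 2, and Cdkn2c was lowest there.

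Cdkn1a, which encodes p21, varied between embryos of both genotypes. Its brighter probe set read 2473, 4514 and 2074 in wild type embryos 1 to 3 and 3496, 3616, 2305, 1703 and 1899 in null embryos 1 to 5. Wild type embryo 2 and null embryos 1 and 2 were the high ones, and the genotypes overlapped. Cultures of 1 embryo lay close together: the 3 cultures of wild type embryo 2 read 4547, 4303 and 4690, and the median coefficient of variation over cultures was 3.29%. The mean was 3020 ± 1309 (SD, n = 3) for wild type against 2604 ± 897 (SD, n = 5) for null embryos, a null minus wild type difference of -0.20 (log2, SE 0.31, limma adjusted p = 0.937). The sign of that value turned when wild type embryo 2 was left out (0.13). It also turned with that embryo kept, at 0.11 with a block on embryo number and 0.044 with the growth index described below as a covariate.

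The dimmer Cdkn1a probe set gave the same order of embryos. It read 368, 784 and 255 in wild type and 516, 540, 342, 228 and 254 in null embryos. The genotype difference was -0.23 (log2, SE 0.37, adjusted p = 0.937), 0.20 without wild type embryo 2 and 0.12 with the block. The highest embryo stood 3.43-fold above the lowest here and 2.65-fold on the brighter probe set, and the embryo means of the 2 probe sets correlated at r = 0.991.

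Cdkn1b, which encodes p27, a protein controlled largely by its turnover, has a bright and a dim probe set. Its brighter probe set read 286, 295 and 311 in wild type and 218, 207, 309, 249 and 258 in null embryos, so that 4 of the 5 null embryos lay below every wild type embryo and null embryo 3 within their range. The means were 297 ± 12.9 (SD, n = 3) and 248 ± 40.01 (n = 5), a difference of -0.25 (log2, SE 0.13, adjusted p = 0.734, 95% interval -0.54 to 0.03). The second probe set lay between 21.6 and 40.3, below the 40th percentile, with a difference of -0.22 (SE 0.14, adjusted p = 0.815). The embryo means of these 2 probe sets correlated at r = 0.453, so they did not give 1 pattern.

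Cdkn1c encodes p57 and is an imprinted gene expressed from the maternal chromosome. It read 209, 442 and 158 in wild type and 595, 461, 253, 188 and 243 in null embryos. The high embryos were those with high Cdkn1a: wild type embryo 2 and null embryos 1 and 2. The means were 270 ± 152 (SD, n = 3) and 348 ± 173 (n = 5), and the 3.76-fold range between embryos was wider than for any other inhibitor probe set. The genotype difference was 0.35 (log2, SE 0.40, adjusted p = 0.904) with a 95% interval from -0.55 to 1.24, which is wide enough to hold large changes in either direction. It was 0.71 with the embryo number as a block (adjusted p = 0.597), 0.65 with the growth index described below as a covariate (SE 0.16, adjusted p = 0.182) and 0.05 to 0.75 when single embryos were left out.

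Among the INK4 genes, Cdkn2a read 211, 374 and 235 in wild type and 397, 310, 308, 234 and 239 in null embryos. Wild type embryo 2 and null embryo 1 were high, and the groups overlapped. The difference was 0.15 (log2, SE 0.21, adjusted p = 0.931); it was -0.01 without wild type embryo 1, 0.34 with the block on embryo number (adjusted p = 0.738) and 0.29 with the growth index as a covariate (adjusted p = 0.457). Its cultures scattered more than those of Cdkn1a, with a median coefficient of variation of 17.5%.

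Cdkn2b, whose product p15 is known as a target of TGF-beta signalling, varied 1.36-fold between embryos. It read 1637, 1623 and 1495 in wild type and 1871, 1377, 1560, 1486 and 1571 in null embryos. Null embryo 1 lay above the wild type range and null embryos 2 and 4 below it. The difference was -0.02 (log2, SE 0.09, adjusted p = 0.986, 95% interval -0.23 to 0.19).

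Cdkn2c, which encodes p18 and is known to be expressed in dividing cells, ran opposite to Cdkn1a. It read 425, 329 and 538 in wild type and 295, 354, 437, 443 and 487 in null embryos. Wild type embryo 2 and null embryos 1 and 2 were the low ones. The means were 431 ± 105 (SD, n = 3) and 403 ± 77.2 (n = 5), a difference of -0.09 (log2, SE 0.18, adjusted p = 0.955) that was 0.08 without wild type embryo 3 and 0.01 without null embryo 1. It was -0.23 with the block on embryo number (adjusted p = 0.728) and -0.22 with the growth index as a covariate (SE 0.09, adjusted p = 0.380).

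Cdkn2d, which encodes p19Ink4d, had the narrowest range, 1.24-fold between embryos. It read 448, 475 and 489 in wild type and 457, 516, 510, 506 and 558 in null embryos. The difference was 0.11 (log2, SE 0.08, adjusted p = 0.833) with a 95% interval from -0.07 to 0.29.

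**Figure D2:**
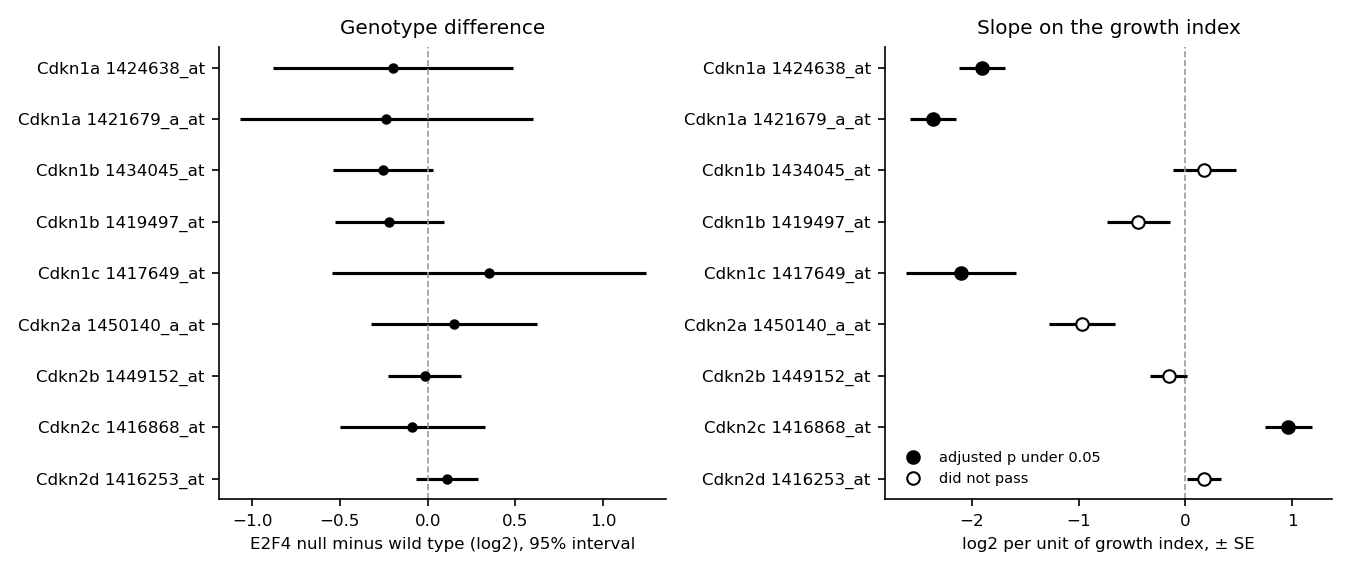
Left, E2F4 null minus wild type difference (log2) of each inhibitor probe set with its 95% interval over 3 and 5 embryos; right, slope on the growth index (log2 per unit) with its SE over 8 embryos, filled where the limma adjusted p was under 0.05. Every interval on the left includes 0, and 4 of the 9 slopes on the right passed.

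The second question was whether each inhibitor followed the growth state of an embryo's cultures. A growth index was formed as the mean log2 deviation of 101 cell cycle genes, 48 of G1/S and replication and 53 of G2/M and mitosis, none of them an inhibitor. It was -0.48 in wild type embryo 2, 0.00 in embryo 1 and 0.25 in embryo 3, and -0.15, -0.14, 0.13, 0.19 and 0.20 in null embryos 1 to 5. It is a measure of cell cycle mRNA and not of cell division. Of the listed genes, 37 of 49 (G1/S) and 51 of 53 (G2/M) were higher in null than in wild type embryos, and 0 were called. Genotype differences with the index as a covariate are therefore not free of that lean, whose source was not tested. Slopes are given in log2 of the inhibitor per unit of this log2 index and were fitted with limma over 22446 probe sets outside the index lists.

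Of the 9 inhibitor probe sets, 3 fell and 1 rose with the index, while 4.95% and 4.98% of all probe sets did so. Counted by gene, 2 of 7 fell and 1 rose, where 660 and 656 of 12291 genes did. These background counts hold genes of any signal level, while only 1 inhibitor probe set lay below the 40th percentile. Cdkn1a fell on both probe sets, with slopes of -1.90 (SE 0.21, adjusted p = 0.00171) and -2.36 (SE 0.22, adjusted p = 0.000876). Cdkn1c fell with a slope of -2.10 (SE 0.52, adjusted p = 0.0292). Cdkn2c rose with a slope of 0.96 (SE 0.22, adjusted p = 0.0222), so within the INK4 family the gene for p18 was higher in embryos with more cell cycle mRNA.

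Cdkn2a had a slope of -0.97 (SE 0.31, adjusted p = 0.0795), which did not pass; it was -1.12 (adjusted p = 0.0283) with genotype in the model and -0.97 (adjusted p = 0.0373) without wild type embryo 1. Cdkn1b had slopes of 0.18 (adjusted p = 0.769) and -0.44 (adjusted p = 0.400), Cdkn2b of -0.16 (adjusted p = 0.644) and Cdkn2d of 0.17 (adjusted p = 0.562). Of these, the slope of the brighter Cdkn1b probe set turned on single embryos. It was 0.95 (SE 0.38, limma adjusted p = 0.236) without wild type embryo 2 and 0.04 to 0.24 without any 1 of the others. In the null embryos alone it was 0.90 (SE 0.41, limma adjusted p = 0.292). The slope of the dimmer Cdkn1b probe set was -0.02 without wild type embryo 2. The slopes of Cdkn2b and Cdkn2d ran from -0.26 to -0.06 and from 0.09 to 0.35 over their alternatives and passed in none.

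**Figure D3:**
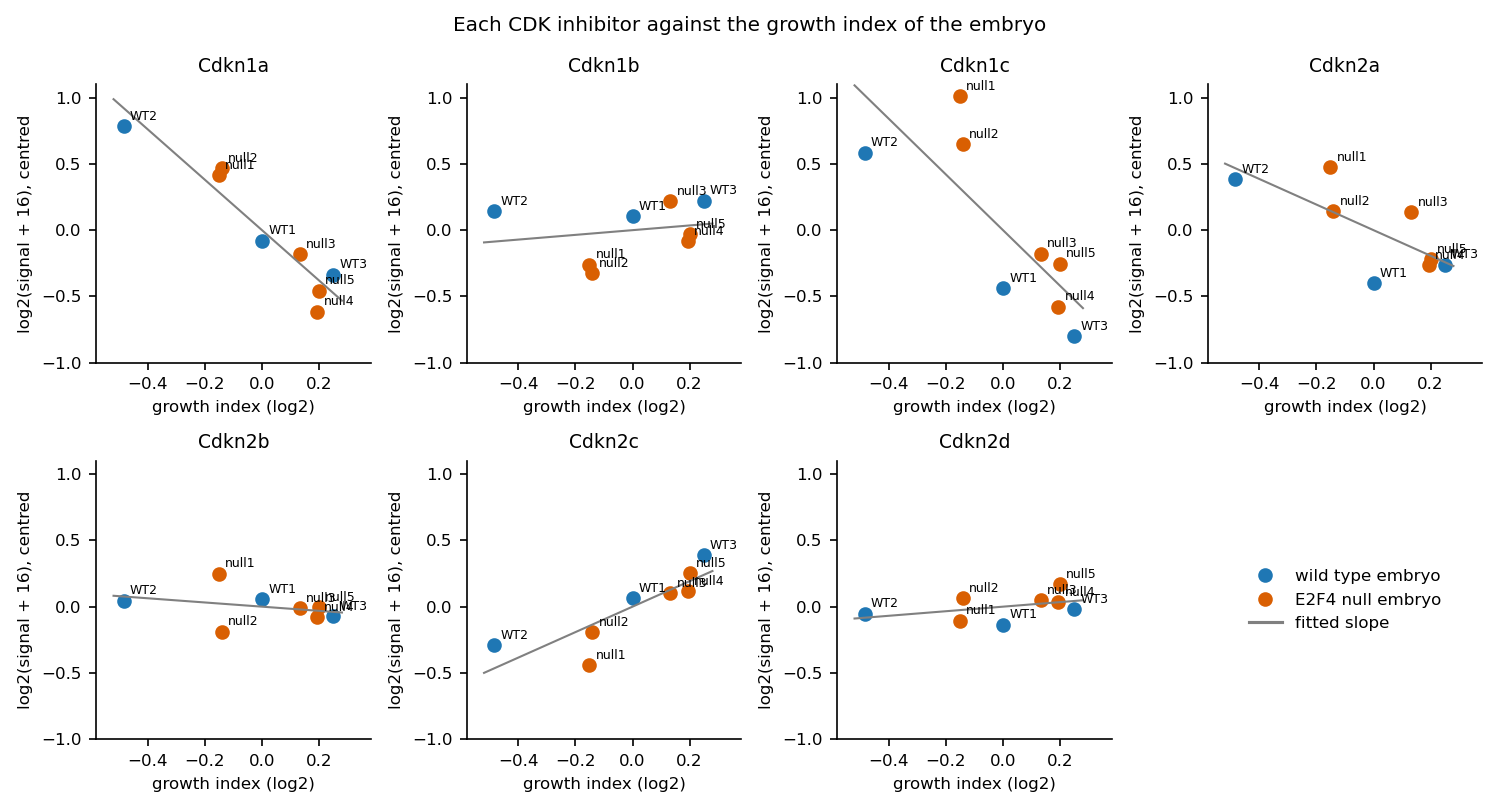
Embryo mean log2(signal + 16) of each inhibitor (brighter probe set, centred on its mean, vertical axis) against the growth index (horizontal axis) for 3 wild type and 5 E2F4 null embryos, with the fitted slope. Cdkn1a and Cdkn1c slope down at -1.90 and -2.10, and Cdkn2c up at 0.96.

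As single relations over 8 embryos, with exact two-sided permutation p-values from 9 relations computed, Cdkn1a (brighter probe set) gave r = -0.949 (exact p = 0.000496) and rho = -0.881 (exact p = 0.00724). Cdkn1c gave r = -0.794 (exact p = 0.0174) and rho = -0.810 (exact p = 0.0218). Cdkn2c gave r = 0.848 (exact p = 0.00608) and rho = 0.976 (exact p = 0.000397). Without the 2 embryos farthest from the median index, wild type embryo 2 and null embryo 1, r was -0.916 for Cdkn1a, -0.830 for Cdkn1c and 0.919 for Cdkn2c. For Cdkn2a, r went from -0.732 (exact p = 0.0349) to -0.420 (exact p = 0.415) over the 6 embryos left. Its limma slope was -1.25 without wild type embryo 2 (adjusted p = 0.254) and -0.83 without null embryo 1 (adjusted p = 0.107). In null embryos alone it was -1.44 (limma adjusted p = 0.124). The direction thus held in these fits, and none of them passed. The exact p-values were not adjusted for the number of relations. Benjamini-Hochberg adjusted p-values belong to the limma slopes only, over all probe sets outside the index lists.

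The relation was also present within the null genotype, where embryos 1 and 2 lay apart from embryos 3 to 5 on the index. In the null embryos alone, Cdkn1a had slopes of -2.73 (adjusted p = 0.00350) and -2.96 (adjusted p = 0.00827), Cdkn1c of -3.64 (adjusted p = 0.00656) and Cdkn2c of 1.48 (adjusted p = 0.0423). So 3 of 9 probe sets fell and 1 rose, where 2.13% and 1.80% of all probe sets did. The null minus wild type difference in slope was -1.17 for Cdkn1a (brighter probe set, adjusted p = 0.449) and -1.71 for Cdkn1c (adjusted p = 0.469), and none of the 9 passed.

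Cdkn1a passed on both probe sets in 18 of 18 alternative settings. Cdkn1c passed in 13 of 18: without wild type embryo 3 or null embryos 2, 3, 4 or 5 its slope was -1.89, -1.97, -2.14, -2.01 or -2.20, with adjusted p = 0.0756, 0.0505, 0.0501, 0.0664 or 0.0526. Cdkn2c passed in 16 of 18: its slope was 0.84 (adjusted p = 0.0605) without wild type embryo 3 and 0.93 (adjusted p = 0.0570) without null embryo 5. Without wild type embryo 2, the embryo with the lowest index, the slopes were steeper, at -3.55 for Cdkn1c and 1.55 for Cdkn2c.

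Summed signals of skeletal muscle, epithelial and endothelial markers were highest in wild type embryo 2 and null embryos 1 and 2. These sums are of linear signal, so the brightest markers weigh most. The summed signal of skeletal muscle markers over 10 genes was 1067, 4377 and 658 in wild type and 2023, 3732, 570.3, 543 and 509 in null embryos, high where Cdkn1a and Cdkn1c were high. The 4 such markers at or above the 40th percentile were Acta1, the skeletal muscle actin gene (211 to 3870), Des (75.4 to 271), Tnnt2 (48.2 to 284) and Tnni1 (15.9 to 204). Their mean log2 deviation was also highest in those embryos, at 0.57 in wild type embryo 2 and 1.09 and 0.97 in null embryos 1 and 2. The defining factors Myod1 (4.07 to 30.3) and Myog (3.97 to 33.2) were below the 40th percentile. The sums of 10 epithelial and of 10 endothelial markers were also highest in wild type embryo 2 and null embryos 1 and 2. For epithelial markers they were 406, 667 and 382 in wild type and 841, 752, 526.2, 558 and 598 in null embryos. For endothelial markers they were 662, 808 and 465 in wild type and 746, 766, 549, 576 and 490.1 in null embryos. The only epithelial markers at or above the 40th percentile were Krt19 (170 to 451 over embryos) and Krt18 (60.7 to 213). The only such endothelial markers were Flt1 (191 to 450) and Eng (120 to 225). The defining genes of those types were below the 40th percentile, with Epcam at 2.18 to 12.8, Cdh1 at 2.80 to 15.4, Pecam1 at 3.51 to 16.2 and Cdh5 at 5.02 to 31.9. Erythroid, neural and macrophage sums did not single out those 3 embryos.

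Among the 15 fibroblast markers, 5 rose and 1 fell with the growth index (limma adjusted p under 0.05), where 656 of 12291 genes rose and 660 fell. Lum, which encodes the matrix protein lumican, rose with a slope of 6.28 (82 to 2220 over embryos), Pdgfra with 4.22 (191 to 1368), Dcn with 2.52 (91.3 to 408), Prrx1 with 1.21 and Twist1 with 1.01, while Fn1, the fibronectin gene, had a slope of -0.79. The sum of the list ran from 105537 to 119483 over the 8 embryos. The part of these marker changes in the results for the inhibitors was not tested.

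A limma F test on the cultures of each genotype asked whether embryos differ beyond their cultures. Among wild type embryos 5 of 9 inhibitor probe sets passed, where 27.5% of all probe sets did: both of Cdkn1a (adjusted p = 2.95e-07 and 3.39e-07), Cdkn1c (4.92e-06), Cdkn2c (7.55e-05) and Cdkn2a (0.0226). Among null embryos 5 of 9 passed, where 8.96% did: both of Cdkn1a (2.06e-05 and 0.000248), Cdkn1c (0.000972), Cdkn2c (0.0136) and Cdkn2b (0.0170). Cdkn1b and Cdkn2d passed in neither genotype.

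Of the 7 genes, 4 fell into opposed sets across the 8 embryos. As a description over 36 pairs, Cdkn1a (brighter probe set) correlated with Cdkn1c at r = 0.863 and with Cdkn2a at 0.802, and Cdkn1c with Cdkn2a at 0.899. Cdkn2c ran against them, at -0.852 with Cdkn1a, -0.941 with Cdkn1c and -0.842 with Cdkn2a. The neighbours Cdkn2a and Cdkn2b correlated at 0.424. Cdkn1b, Cdkn2b and Cdkn2d correlated less with these genes: with Cdkn1a they stood at -0.28 (brighter Cdkn1b probe set), 0.28 and -0.42. Their largest values were -0.61 for the brighter Cdkn1b probe set with Cdkn1c, -0.48 for Cdkn2b with Cdkn2c and 0.44 for Cdkn2d with Cdkn2c. These points share the arrays and the growth index of each embryo.

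**Figure D4:**
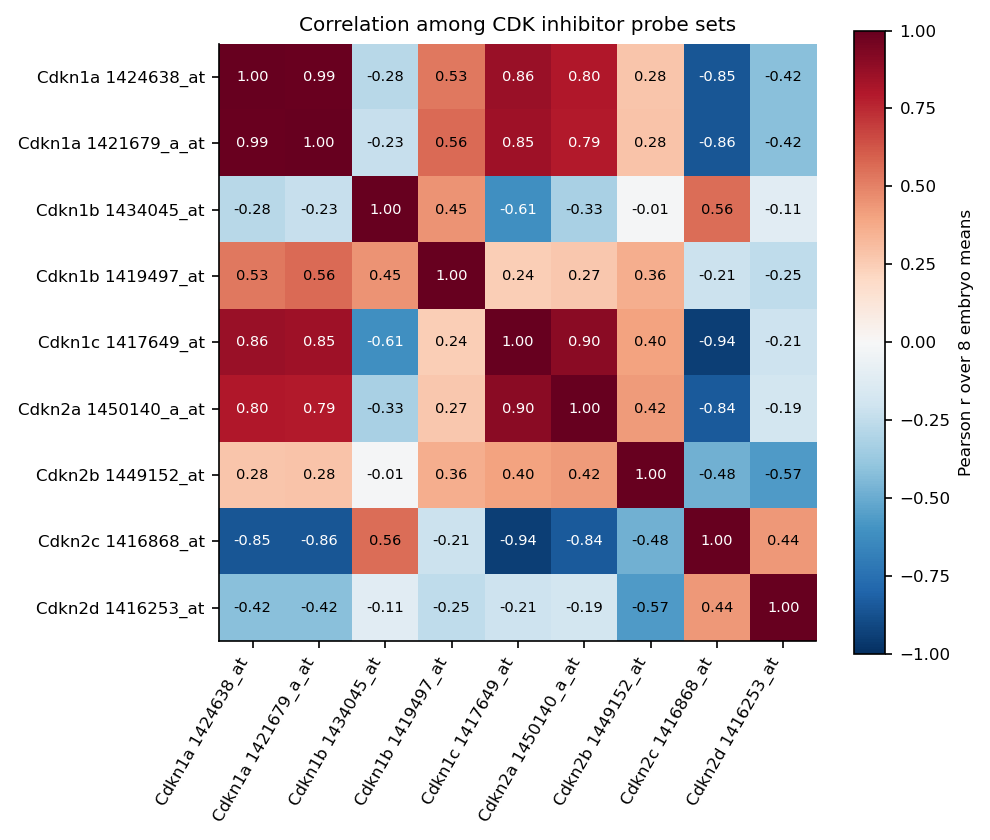
Pearson r between the 9 inhibitor probe sets over 8 embryo means, with the value in each cell (red above 0, blue below). Cdkn1a, Cdkn1c and Cdkn2a correlate with each other at 0.79 or more and with Cdkn2c at -0.84 or less.

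Of the 7 inhibitors, 3 were then each set against an index of other genes, with 3 relations computed. For Cdkn1a and Cdkn2b the index was of a pathway known to control the gene, and for Cdkn1c of other imprinted genes. Cdkn1a is a direct target of p53, and over the 8 embryos it followed an index of 28 other p53 pathway and target genes: wild type embryo 2 and null embryos 2 and 1 were highest on both and null embryo 4 lowest. The relation had r = 0.995 (exact permutation p = 2.48e-05, the smallest that 8 embryos can give) and rho = 1 (exact p = 4.96e-05), and r = 0.990 without wild type embryo 2 and null embryo 2. The limma slope was 3.31 (SE 0.18, adjusted p = 5.04e-05), on an index on which 10.2% of all probe sets passed. The list holds mitotic genes such as Ckap2 and Gtse1, and the p53 index ran opposite to the growth index over these embryos.

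**Figure D5:**
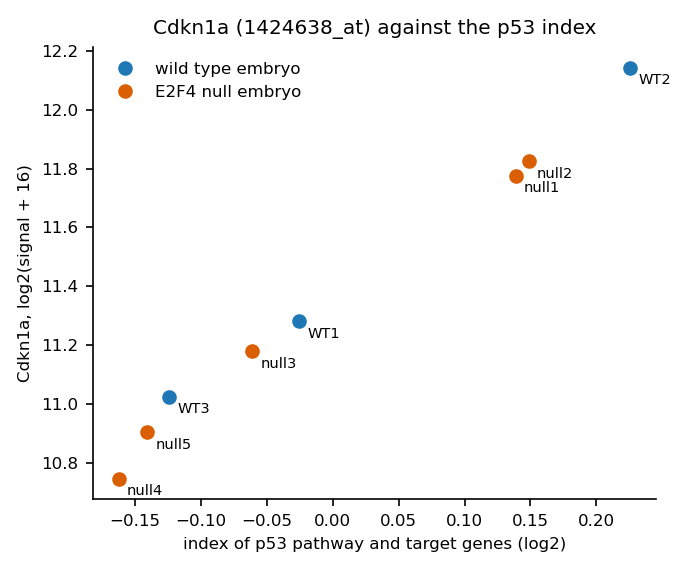
Cdkn1a (brighter probe set, log2(signal + 16), vertical axis) against the index of 28 p53 pathway and target genes (log2, horizontal axis), 1 point per embryo. The order of the 8 embryos is the same on both axes (rho = 1).

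Cdkn2b had no relation that passed with 20 TGF-beta pathway and target genes: r = 0.061 (exact p = 0.889), rho = 0.071 (exact p = 0.882), limma adjusted p = 0.984, on an index on which 0% of probe sets passed. Against 16 imprinted growth genes Cdkn1c had r = -0.666 (exact p = 0.0762), rho = -0.500 (exact p = 0.216), with a limma slope of -4.50 (adjusted p = 0.119, 7.85% of probe sets passed). That relation did not pass; without null embryo 1 it had r = -0.774 (exact p = 0.0454).

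The genes around the inhibitors, from lists by role, were called with the growth index (limma adjusted p under 0.05) as follows, where 656 of 12291 genes rose and 660 fell (median slope -0.05). Of 15 genes for cyclins, CDKs and enzymes that act on CDKs, 4 rose and 1 fell (median 0.29): Ccna2 (0.99), Cdk4 (0.60) and Cdk2 (0.48) rose, as did Wee1 (0.96), which encodes a kinase that restrains CDK activity and is no target of the inhibitors, and Ccnd2, a D-type cyclin, fell by 0.69. Of 10 Rb family and E2F genes, 2 rose and 1 fell (median 0.35): Rbl1, which encodes p107 (0.97), and Tfdp1 (0.61) rose and Rb1 fell by 0.85. Of 14 genes of p27 turnover 2 rose and 0 fell (median 0.23), Foxo1 (0.82) and Skp2, the ubiquitin ligase subunit that marks p27 (0.74).

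On the list of p53 pathway and p53 target genes, most of whose called members are targets of p53 as Cdkn1a is, 10 of 29 fell and 1 rose with the index (median -0.50). Those with the steepest slopes were Pmaip1 (-4.81), a cell death gene, Mdm2 (-1.67), which encodes the ligase of p53, Trp53inp1 (-1.29) and Plk2 (-1.01), each falling as Cdkn1a did. Of 23 regulators of the Ink4 and Arf locus 6 rose and 0 fell (median 0.15), among them the Polycomb repressors Bmi1 (0.85) and Ezh2 (0.84), Twist1 (1.01) and Kdm2b (0.67). Of 20 TGF-beta genes 2 rose and 4 fell (median -0.22), with Tgfb2 (-1.92), Ccn2 (-1.61), Tgfbr3 (1.49) and Pmepa1 (-0.82). Of 25 imprinted genes 3 rose and 2 fell (median -0.01), with Dlk1 (3.71), Dcn (2.52), Gatm (-1.44) and Igf2 (0.99).

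Between genotypes 0 genes of each of these lists passed, and their median differences ran from -0.11 (TGF-beta genes) to 0.05 (genes of p27 turnover), beside 0.01 over all genes. Cdk6, the kinase that INK4 proteins bind, read 69.7 in wild type and 34.5 in null embryos (-0.78 log2, SE 0.20, adjusted p = 0.501) from a probe set at the 36.3 percentile of signal. Id1, a regulator of the Ink4 locus, read 1593 and 938 (-0.77, SE 0.14, adjusted p = 0.295). Btg2, a p53 target that like p21 slows the cycle, read 765 and 422 (-0.86, SE 0.23, adjusted p = 0.501).

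By correlation over the 8 embryos among 12556 or 12557 other named probe sets, the genes most like each inhibitor were Homer3 (0.985), Itgav (0.984) and Tgm2 (0.984) for Cdkn1a; C330007P06Rik (0.984), Notch2 (0.972) and Acvr1b (0.961) for Cdkn1b; and Ttll1 (0.980), Gucy1b1 (0.976) and Usp3 (0.974) for Cdkn1c. For the INK4 genes they were Tkt (0.961), G3bp2 (0.961) and Glrx2 (0.958) for Cdkn2a, Atp13a2 (0.956), Mink1 (0.948) and Rccd1 (0.944) for Cdkn2b, Nxt1 (0.990), Sumo3 (0.989) and Ahrr (0.988) for Cdkn2c, and Mrps30 (0.984), Cltc (0.970) and Bloc1s5 (0.968) for Cdkn2d. Homer3, Itgav, Tgm2, Gucy1b1, Tkt, Nxt1 and Ahrr were called with the growth index, and the others were not. All were picked for following an inhibitor over these same embryos, so their relation to the index is no separate result.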

How the data were processed

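Total RNA from 20 cultures was hybridised to single-colour arrays. The deposited values are linear signal intensities, made by the authors with MAS5 per the submitters' processing notes; the sources used here give neither version nor scaling target. All arrays had the same trimmed mean, so they were not rescaled; such scaling hides a change shared by all genes, and detection calls were not used here. Titles carry 2 numbers, read as embryo and culture. Of 22690 probe sets, 64 controls were dropped; 20380 of the rest had 1 symbol, updated by gene ID with GRCm38.p6 (20351 matched). Intensities became log2(signal + 16), which understates changes of low genes, and were averaged per embryo. limma 3.58.1 in R 4.3.3 (lmFit, eBayes with trend, two-sided, Benjamini-Hochberg over all probe sets) gave genotype differences, slopes on the growth index and F tests over cultures; fits were tested on simulated data. Exact permutation p-values came from all orders of the embryos, computed with numpy 2.4.6, with ranks from scipy 1.17.1. Index genes had 1 probe set each, the one with the highest mean, at or above the 40th percentile of signal. For each list, up to 4 called genes with the largest slope, or otherwise those with the smallest p, were named; the genes most like an inhibitor were the 3 with the highest correlation. The deviations of same-numbered embryos of the 2 genotypes correlated at r = 0.127, 0.622 and 0.350 for embryos 1 to 3. Pairs of unlike number were not compared, so these values do not show that the numbers are matched. The embryo number was used as a block in an alternative, whose genotype estimates rest on embryos 1 to 3 of each genotype. This pairing takes the embryo numbers from the titles, and the labels do not state a shared litter or batch. Other alternatives changed the pseudocount, filter, normalization, index, arrays and embryos. The members and lists were chosen with earlier results of these data known. The number of arrays limits the precision.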

Additional observations from a re-analysis of the deposited data

How the results depend on the processing

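No genotype call of an inhibitor appeared under any alternative run, and Cdkn1a kept its called slope in all 18. Over all probe sets, genotype calls went from 0 to 1 with 1 probe set a gene and the filter, 22 with the growth index as a covariate, 220 with cultures and the embryo as a random block, 88 with the culture number as a replicate block as well, and 0 to 5 with single embryos left out (5 when wild type embryo 2 was dropped and 1 when wild type embryo 3 was). With the embryo number as a replicate block, which pairs same-numbered embryos, 0 probe sets were called, and the small genotype differences of Cdkn1a became 0.11 and 0.12 (dimmer probe set) and that of Cdkn2b 0.0060; the block turned no other direction and changed no call, but moved Cdkn1c to 0.71, Cdkn2a to 0.34 and Cdkn2c to -0.23. With the growth index as a covariate these were 0.044, 0.066 and 0.0032, and Cdkn1c, Cdkn2a and Cdkn2c were 0.65, 0.29 and -0.22; Cdkn2b was 0.014 after quantile normalization. With single embryos left out the genotype differences ran from -0.43 to 0.13 and -0.58 to 0.20 (Cdkn1a), -0.0059 to 0.38 (Cdkn2a), -0.081 to 0.029 (Cdkn2b) and -0.26 to 0.082 (Cdkn2c), the inhibitor probe sets called with the growth index from 2 to 5 (2 without wild type embryo 3 and 2 without null embryo 5), r of Cdkn2b with TGF-beta genes from -0.115 to 0.306, and r of Cdkn1c with imprinted genes from -0.774 (without null embryo 1, exact permutation p = 0.0454) to -0.604. The slope of the dim Cdkn1b probe set was 0.0017 in null embryos alone. The causes of these changes were not tested. With 3 and 5 embryos, differences inside the intervals given cannot be told from none, and signals below the 40th percentile, as of that Cdkn1b probe set, are near background.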

Other observations

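Genes of senescence and quiescence, which share their theme with the inhibitors, also varied with the growth index. Of 23 such genes 5 rose and 3 fell (median slope -0.22), where 656 of 12291 genes rose and 660 fell, 10.7% in all (median -0.05). Gas1, a growth arrest gene, rose (5.58), as did the chemokine gene Cxcl1 (2.83) and the chromatin gene Hmgb2 (1.81), while Ccng2, which encodes a cyclin of quiescent cells, fell by 2.60. Between genotypes 0 of the 23 passed.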
